A study of Bos taurus with 18 samples.

Results

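The genes described here encode S100 proteins of the epithelium: S100A2, S100A4, S100A6, S100A7, S100A8, S100A9, S100A10, S100A11, S100A12 and S100A14. They were chosen by name in the table of raw read counts. Of these 10 names, 9 were found among the 27270 genes of the table, and S100A6 had no row under that name. After a filter on low counts 8 of the 9 were tested among 22202 genes; S100A7 had too few reads and was not tested.

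RNA was sequenced from rumen papillae, the projections that line the first stomach of the cow. The animals were 9 rumen-cannulated, non-lactating Holstein cows, 5 of them controls and 4 given a supplement that the labels name only as PHY. Biopsies were taken on a diet of 100% forage and again after a change to high grain with 65% concentrate. The 18 libraries thus form 4 groups: control cows on forage (forage_control, n = 5), PHY cows on forage (forage_PHY, n = 4), control cows on grain (grain_control, n = 5) and PHY cows on grain (grain_PHY, n = 4). The labels do not say whether the forage biopsies of PHY cows were taken before or after the supplement began, and age is not given in the sources used here. Replicate numbers are names in order of deposit, and no label ties a library to a cow. Diet and the order of sampling cannot be told apart, because forage came first in every cow.

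S100 proteins are small calcium-binding proteins that work mostly as pairs. S100A8 and S100A9 pair to form calprotectin, which holds back zinc and manganese from microbes and, once released, signals through Toll-like receptor 4 and the receptor RAGE. It is abundant in neutrophils, and keratinocytes of stratified epithelia also make it. S100A12, or calgranulin C, is a related zinc- and copper-binding protein that also binds RAGE. S100A2 and S100A14 are keratinocyte isoforms, and S100A7 (psoriasin) is an antimicrobial protein of inflamed skin. S100A4, S100A10 and S100A11 occur in many cell types: S100A4 binds non-muscle myosin, S100A10 binds annexin A2 at the membrane, and S100A11 binds annexin A1. Most S100A genes lie together in the epidermal differentiation complex, with genes of the cornified layer.

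Facts that bear on every diet comparison come first. Total reads ran from 3953060 to 34471682 per library, with a mean of 25166600 ± 7554010 (SD, n = 9) on forage and 13416800 ± 6765010 (n = 9) on grain. Reads on 144 olfactory receptor genes, which are silent in most tissues, stood at 30.4 ± 16.3 CPM (reads scaled to library size) on forage and 106.6 ± 100.0 CPM on grain, with the highest value, 345.3 CPM, in grain_PHY 1. That library also had the fewest reads. With total reads in place of edgeR's TMM scaling, the median log2 change of all genes from forage to grain moved from 0.20 to 0.75, and the calls moved from 4023 higher and 3068 lower to 8057 higher and 81 lower. Without grain_PHY 1, 1 gene in all was called between the diets. Basal keratinocyte markers together ran from 3067 to 14094 CPM and suprabasal ones from 281.3 to 1221 CPM over the 18 libraries, so markers of both kinds of epithelial cell were present in every library.

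Levels below are CPM on edgeR's effective library sizes, given in the order of replicates. Changes are log2 fold changes with their standard errors (SE), and a gene is called where edgeR's quasi-likelihood test gave an adjusted p (Benjamini-Hochberg, over all genes tested) under 0.05. CPM is not corrected for gene length, so levels are compared between libraries and not between genes.

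S100A8 (ENSBTAG00000012640), the first calprotectin subunit, stood at nearly the same mean in all 4 groups. On forage the control libraries read 180, 56.9, 163, 265 and 178 CPM and the PHY libraries 210, 211, 217 and 108 CPM. On grain the control libraries read 136, 182, 253, 78.7 and 214 CPM and the PHY libraries 74.7, 178, 168 and 267 CPM. The groups overlapped in every comparison, and each group held at least 1 library well below its others. Group means were 169 ± 74.3 (SD, n = 5), 186 ± 52.6 (n = 4), 173 ± 67.9 (n = 5) and 172 ± 78.7 CPM (n = 4) in the same order.

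S100A9 (ENSBTAG00000006505), the other calprotectin subunit, varied widely between libraries of one group. On forage it read 38.1, 2.81, 18.8, 28.9 and 28.1 CPM in control cows and 67.7, 38.6, 23.4 and 11.7 CPM in PHY cows. On grain it read 14.4, 15.7, 53.8, 17.0 and 53.2 CPM in control cows and 19.7, 46.8, 30.4 and 137 CPM in PHY cows. The highest value was grain_PHY 4 and the lowest forage_control 2, which also had the lowest S100A8. From lowest to highest, the group means were 23.4 ± 13.4 CPM (SD, n = 5) for control cows on forage, 30.8 ± 20.7 (n = 5) for control cows on grain, 35.3 ± 24.2 (n = 4) for PHY cows on forage and 58.4 ± 53.4 (n = 4) for PHY cows on grain. Neighbours in that order differed by less than their SDs.

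S100A12 (ENSBTAG00000012638) took most of the reads on the 9 genes, 72.6% ± 4.22 (SD, n = 18). The control libraries on forage read 3137, 1489, 1813, 3993 and 4021 CPM, and the PHY libraries 3874, 3320, 3342 and 1924 CPM. On grain the control libraries read 1384, 2883, 2568, 1342 and 4234 CPM, and the PHY libraries 1080, 1754, 2063 and 2386 CPM. The highest single value was thus a grain library of a control cow, while 3 grain libraries lay below every forage library. Group means were 2891 ± 1192, 3115 ± 834, 2482 ± 1198 and 1821 ± 557 CPM.

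**Figure D1:**
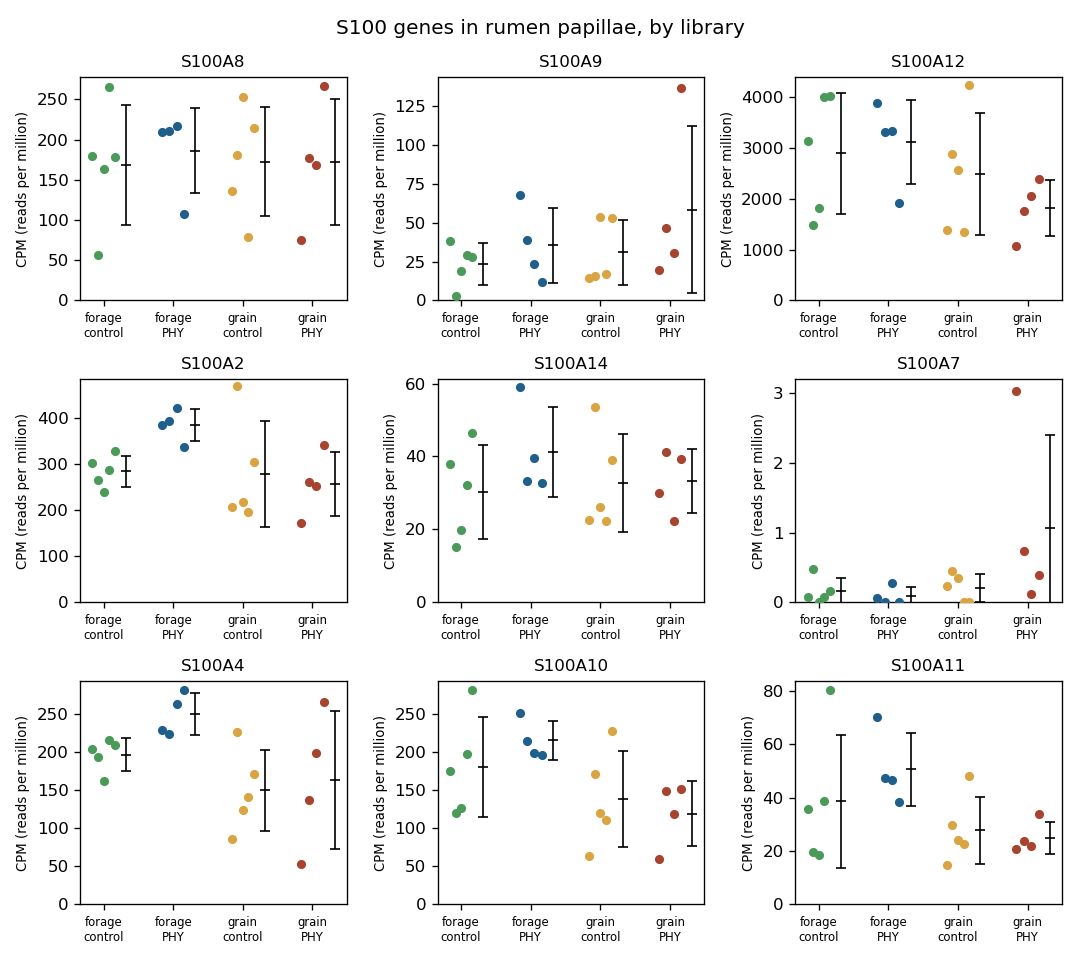
Level of each of the 9 S100 genes in every library, in CPM on linear axes that start at 0, by group; points are libraries (5 per control group, 4 per PHY group), the bar beside them is the mean with 1 SD, and a lower bar that would pass 0 is clipped there. S100A8 means lie between 169 and 186 CPM in all groups, whereas S100A10 and S100A11 of PHY cows lie lower on grain than on forage without overlap.

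S100A2 (ENSBTAG00000037651), a keratinocyte isoform that p63 is known to induce, varied little on forage. It read 302, 265, 239, 286 and 328 CPM in forage_control and 385, 393, 422 and 337 CPM in forage_PHY. On grain it read 206, 468, 218, 195 and 303 CPM in control cows and 172, 260, 253 and 341 CPM in PHY cows. All 4 PHY libraries on forage lay above all 5 control libraries, and on grain the arms overlapped. Means were 284 ± 34.1, 384 ± 35.4, 278 ± 114 and 256 ± 69.2 CPM in forage_control, forage_PHY, grain_control and grain_PHY.

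S100A14 (ENSBTAG00000021377), the other keratinocyte isoform, overlapped between the groups in every comparison. Its control libraries read 38.03, 15.1, 19.8, 32.2 and 46.4 CPM on forage and 22.6, 53.6, 26.2, 22.3 and 39.2 CPM on grain. Its PHY libraries read 59.0, 33.3, 39.6 and 32.6 CPM on forage and 30.1, 41.2, 22.4 and 39.4 CPM on grain.

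S100A7 (ENSBTAG00000008238), the antimicrobial psoriasin, was close to absent from the libraries. Counts were 1, 8, 0, 2 and 5 reads in forage_control and 2, 0, 5 and 0 reads in forage_PHY. They were 2, 11, 6, 0 and 0 reads in grain_control and 28, 8, 2 and 4 reads in grain_PHY. The 28 reads came from grain_PHY 1, where they made 3.03 CPM, and no other library passed 1 CPM. With no low-count filter edgeR gave a change with diet in PHY cows of 3.53 ± 1.43 (adjusted p = 0.0969); DESeq2 gave 3.85 ± 1.41 with an adjusted p of 0.0381.

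S100A4 (ENSBTAG00000019203) read 204, 194, 162, 216 and 209 CPM in forage_control and 230, 225, 264 and 282 CPM in forage_PHY, so the arms did not overlap on forage. On grain it read 86.2, 227, 124, 142 and 172 CPM in control cows and 53.0, 137, 199 and 266 CPM in PHY cows. The spread between grain_PHY libraries (SD 90.7 CPM) was wider than between forage_PHY libraries (27.6 CPM), and grain_PHY 1 was the lowest of all.

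S100A10 (ENSBTAG00000015147), the annexin A2 partner, read 176, 120, 127, 198 and 283 CPM in forage_control and 252, 215, 199 and 197 CPM in forage_PHY. On grain it read 63.9, 171, 120, 112 and 228 CPM in control cows and 59.5, 149, 119 and 151 CPM in PHY cows. Every grain library of PHY cows lay below every forage library of PHY cows, and in control cows the diets overlapped.

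S100A11 (ENSBTAG00000015145), the annexin A1 partner, showed the same order. It read 35.8, 19.5, 18.4, 38.8 and 80.2 CPM in forage_control and 70.2, 47.2, 46.5 and 38.2 CPM in forage_PHY. On grain it read 14.6, 29.6, 24.2, 22.5 and 48.0 CPM in control cows and 20.6, 23.7, 21.8 and 33.7 CPM in PHY cows. Again the diets did not overlap in PHY cows and overlapped in control cows.

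Grain was first compared with forage over both arms. S100A10 and S100A11 fell with this scaling, and no calprotectin or keratinocyte isoform passed the test. S100A10 fell by 0.61 ± 0.24 (adjusted p = 0.0493), from a mean of 196 ± 52.4 (SD, n = 9) to 130 ± 52.6 CPM (n = 9). S100A11 fell by 0.74 ± 0.25 (adjusted p = 0.0334), from 43.9 ± 20.6 to 26.5 ± 9.70 CPM. Thus 2 of 8 tested members were called lower, beside 13.8% of all genes tested, and none was called higher, beside 18.1%. Of genes above 6 in mean log2 CPM, where 5 of the 8 members lie (all but S100A9, S100A14 and S100A11), 51.7% were called lower.

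Both calls depended on scaling and on single libraries. With total reads in place of TMM, S100A10 stood at -0.23 ± 0.19 (adjusted p = 0.339) and S100A11 at -0.32 ± 0.27 (adjusted p = 0.353). With the olfactory receptor level as a covariate they stood at 0.17 ± 0.15 and 0.06 ± 0.26, and without the 3 libraries with the fewest reads (grain_PHY 1, grain_control 1 and grain_control 4) at -0.30 ± 0.17 and -0.52 ± 0.28. Leaving out 1 library at a time, S100A10 kept its call in 4 of 18 fits (without forage_control 2 or 3, grain_control 5 or grain_PHY 4), with adjusted p from 0.0169 to 0.134. S100A11 kept its call in 10 of 18, with adjusted p from 0.0114 to 0.101; it lost it without forage_control 5, forage_PHY 1 or 2, grain_control 1, 2 or 4, or grain_PHY 1 or 2. S100A10 was also the member that ran closest with depth: its log2 CPM had a Pearson r of 0.90 with log2 total reads and of -0.94 with the log2 olfactory receptor level over the 18 libraries. The part of depth or of the olfactory receptor signal in the 2 falls was not tested.

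The other 6 tested members did not pass. S100A4 stood at -0.50 ± 0.23 (adjusted p = 0.0893) and S100A12 at -0.50 ± 0.28 (adjusted p = 0.143). S100A2 stood at -0.31 ± 0.20 (adjusted p = 0.202) and S100A14 at -0.10 ± 0.22 (adjusted p = 0.724). S100A8 stood at -0.04 ± 0.27 (95% interval -0.58 to 0.50, adjusted p = 0.906) and S100A9 at 0.56 ± 0.48 (interval -0.38 to 1.5, adjusted p = 0.334). The sign of S100A8, S100A2 and S100A14 turned positive with total reads as the scale (0.34, 0.12 and 0.37). S100A9 stayed above 0 under all these scalings, at 0.86 ± 0.42 with total reads and 1.80 ± 0.53 with the covariate, without a call.

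**Figure D2:**
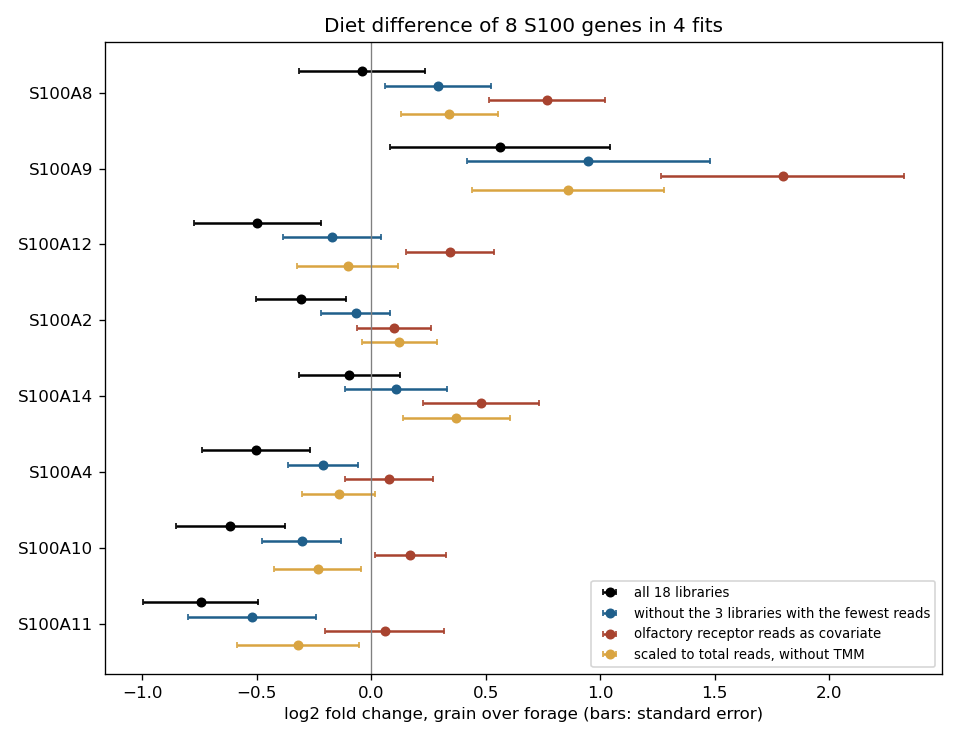
Log2 fold change, grain over forage averaged over both arms, for the 8 tested S100 genes; points are estimates and bars 1 standard error, in 4 fits. S100A10 and S100A11 lie at -0.61 and -0.74 with all 18 libraries and TMM scaling, and near 0 with the olfactory receptor covariate; S100A9 lies above 0 in all 4.

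Within each arm no gene of the table was called, so the background was 0% of 22202 genes for either arm. At an unadjusted p under 0.05 there were 2518 genes in control cows and 8820 in PHY cows. In control cows the members ranged from -0.47 ± 0.33 for S100A11 (adjusted p = 0.477) to 0.40 ± 0.64 for S100A9 (adjusted p = 0.731). In PHY cows S100A11 stood at -1.02 ± 0.38 (adjusted p = 0.0767) and S100A10 at -0.85 ± 0.35 (adjusted p = 0.0925), and S100A12 at -0.77 ± 0.41 (adjusted p = 0.155). The 2 genes whose PHY libraries did not overlap between the diets were S100A10 and S100A11. They belong to a common pattern, since 15.8% of all genes lay wholly lower on grain in PHY cows. Of the 1206 abundant genes, which include S100A10 but not S100A11, 63.4% did. With CPM by total reads neither member was without overlap, beside 1.09% of all genes and 7.71% of the abundant ones. In PHY cows S100A11 passed with only the groups compared, without forage_control 5, and with limma voom. S100A10 and S100A2 passed with limma voom as well.

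The arms were then compared on each diet, and no gene was called on either: 0% of 22202 genes on forage and 0% on grain, with 356 and 571 genes at an unadjusted p under 0.05. On forage all 8 members had positive estimates, from 0.11 ± 0.39 for S100A12 to 0.60 ± 0.67 for S100A9, each with an adjusted p of 1. The median over all genes was -0.02. Members ran together over the libraries, and the shared sign was not tested. Mean reads were 26477000 in forage_PHY and 24118300 in forage_control, and mean olfactory receptor levels 24.2 and 35.3 CPM. The members without overlap on forage were S100A2, at 0.44 ± 0.28, and S100A4, at 0.34 ± 0.33. Over all genes 0.338% lay wholly higher in PHY cows on forage, and 0.498% of the abundant ones. With total reads as the scale S100A4 kept this separation and S100A2 did not. On grain S100A9 had the highest estimate, 0.92 ± 0.67, and S100A12 the lowest, -0.45 ± 0.39, each with an adjusted p of 0.999.

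Whether the diet response differed between the arms was tested as an interaction, and again 0% of 22202 genes was called, with 442 at an unadjusted p under 0.05. The differences, PHY minus control, ran from -0.55 ± 0.55 for S100A12, -0.55 ± 0.40 for S100A2 and -0.55 ± 0.50 for S100A11 to 0.31 ± 0.96 for S100A9. Their adjusted p-values lay at 0.954 or above. The narrowest interval was that of S100A2, -1.33 to 0.22, and the widest that of S100A9, -1.56 to 2.19. They show how wide a difference these 18 libraries leave unresolved.

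Ratios within a library do not depend on its scaling, and they set calprotectin against the keratinocyte isoforms directly. The log2 ratio of S100A8 plus S100A9 reads over S100A2 plus S100A14 reads averaged -0.87 ± 0.81 (SD, n = 5) in control cows and -1.01 ± 0.43 (n = 4) in PHY cows on forage. The grain averages were -0.64 ± 0.69 (n = 5) in control cows and -0.48 ± 0.48 (n = 4) in PHY cows. The grain mean lay 0.36 above the forage mean, less than the pooled SD within groups of 0.64. Single libraries ran from -2.23 in forage_control 2 to 0.33 in the highest grain_control library, and the groups overlapped. In PHY cows the grain mean lay 0.53 above the forage mean, just over the SD of either group. With S100A12 added above and S100A7 and S100A11 below, the grain mean lay at -0.10 relative to forage.

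The ratio of reads between the calprotectin subunit genes varied too, and no protein was measured. S100A9 reads made 0.129 ± 0.060 (SD, n = 5) of S100A8 reads in control cows on forage, 0.181 ± 0.101 (n = 4) in PHY cows on forage, 0.174 ± 0.073 (n = 5) in control cows on grain and 0.305 ± 0.143 (n = 4) in PHY cows on grain. The groups overlapped. S100A12 reads were 18.5 ± 5.97, 16.9 ± 1.54, 14.6 ± 4.29 and 11.4 ± 2.48 times S100A8 reads in the same groups. All 4 grain_PHY libraries had a lower S100A12 to S100A8 ratio (8.93 to 14.5) than any forage_PHY library (15.4 to 18.5). It was singled out after its values were seen: of 11 ratios computed it was the 1 that separated the diets in PHY cows, and 0 of 11 did so in control cows. Neither S100A12 nor S100A8 alone separated the diets in PHY cows. Of abundant single genes, 63.4% lay wholly lower on grain in PHY cows with TMM and 7.71% with total reads. Those shares are of single genes and do not say how often a ratio separates. The ratios given here were chosen together with the members and carry no test.

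**Figure D3:**
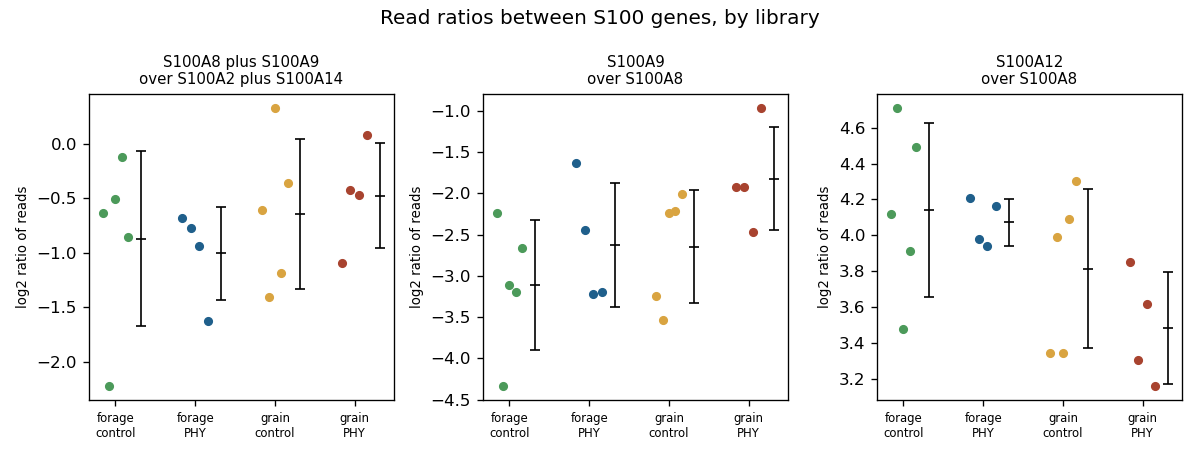
Log2 ratios of reads between S100 genes in each library, by group; points are libraries (5 per control group, 4 per PHY group) and the bar is the mean with 1 SD. The calprotectin to keratinocyte isoform ratio overlaps in all groups, with forage_control 2 lowest at -2.23, and the S100A12 to S100A8 ratio averages 4.07 in forage_PHY and 3.48 in grain_PHY.

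The counts of called genes in the pathway and marker lists below are to be read beside the 18.1% of all genes called higher and 13.8% called lower on grain (51.7% lower among the abundant ones). Each call below shares the dependence on grain_PHY 1 given above, and with the olfactory receptor covariate no gene of any list was called. The fused S100 genes encode proteins that join an S100 domain to a long repeat and build the cornified layer. Of 7 listed, FLG, FLG2, HRNR and TCHH had no row under those names. The 3 tested all rose (median 1.32, beside 0.20 over all genes). CRNN (cornulin) rose by 1.64 ± 0.35 (adjusted p = 0.0201), RPTN (repetin) by 1.32 ± 0.38 (adjusted p = 0.0229) and TCHHL1 by 1.22 ± 0.40 (adjusted p = 0.0306). Without the 3 libraries with the fewest reads none of the 3 was called, at 0.99, 0.74 and 0.79. Of 8 other S100 genes 2 fell, S100A16 by 0.76 ± 0.21 and S100Z by 1.33 ± 0.43, and the list's median was 0.36. Over all genes 13.8% were called lower. With total reads as the scale neither was called (-0.36 and -0.91).

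Of 10 binding partners 1 rose (median -0.28), beside 18.1% of all genes called higher: TRPV5, a calcium channel that S100A10 and annexin A2 carry to the membrane, at 2.35 ± 0.46 (adjusted p = 0.0201). Annexin A2 itself (ANXA2) stood at -0.46 ± 0.24 (adjusted p = 0.12) and annexin A1 (ANXA1) at -0.28 ± 0.26 (adjusted p = 0.373). Neither annexin was thus called by edgeR, while limma voom called ANXA2 lower (-0.52 ± 0.17, adjusted p = 0.0148).

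Of 10 receptors and signal proteins for secreted S100 proteins 2 fell (median -0.33), beside 13.8% of all genes called lower. MYD88, the adaptor of Toll-like receptors, fell by 0.53 ± 0.15 (adjusted p = 0.023), and BSG (basigin), a receptor of S100A9, fell by 0.67 ± 0.24 (adjusted p = 0.0372). TLR4 stood at -0.52 ± 0.28 (adjusted p = 0.133), AGER, which encodes RAGE, at 0.07 ± 0.25 (adjusted p = 0.833) and CD36 at 0.64 ± 0.31 (adjusted p = 0.102). With total reads as the scale neither MYD88 (-0.06) nor BSG (-0.28) was called, and CD36 was (1.26 ± 0.43, adjusted p = 0.0277).

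Of 19 cytokines, receptors and transcription factors known to induce S100A7, S100A8 and S100A9, 5 rose and 5 fell (median -0.18), beside 18.1% and 13.8% of all genes. IL1B rose by 1.57 ± 0.35 and IL1A by 1.02 ± 0.30, both interleukin 1 cytokines. CEBPD, a transcription factor, fell by 0.76 ± 0.21 and IL17RC, a subunit of the interleukin 17 receptor, by 0.51 ± 0.15. With total reads as the scale the 2 cytokines kept their calls and CEBPD and IL17RC did not. Neither S100A8 nor S100A9 was called beside them. With that scale the medians of the partner, receptor and inducer lists were 0.14, 0.15 and 0.41, beside 0.75 over all genes, and none of their members was called lower.

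Since S100A8, S100A9 and S100A12 are also neutrophil genes, markers of that cell type are given with them. Of 18 tested neutrophil markers 8 rose from forage to grain and none fell (median 1.38), beside 18.1% of all genes called higher. Examples are ITGAM at 1.48 ± 0.38, MPO (myeloperoxidase) at 1.85 ± 0.48 and CSF3R, the receptor of granulocyte colony-stimulating factor, at 1.34 ± 0.35. With the olfactory receptor covariate these 3 stood at 0.27 ± 0.33, 0.42 ± 0.46 and 0.50 ± 0.35, and the list's median at 0.04. Their level was low: 9 of the 19 markers in the table averaged under 1 CPM, among them ELANE and PRTN3, and none was at 0 reads over all libraries. Summed, the markers ran from 7.72 to 38.5 CPM on forage and from 20.1 to 108 CPM on grain. In bulk tissue, more cells of a type and more RNA per cell cannot be told apart.

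S100A12 did not run with these markers. Over the 18 libraries its log2 CPM had a Pearson r of -0.87 (Spearman -0.84) with the summed neutrophil markers, and of -0.82 without the 2 libraries farthest from the median. Within forage libraries r was -0.79 (n = 9) and within grain libraries -0.97 (n = 9). With the summed suprabasal keratinocyte markers r was 0.92 (Spearman 0.92), at 0.82 on forage and 0.96 on grain. With the basal keratinocyte markers r was 0.75 (Spearman 0.70), at 0.59 on forage and 0.79 on grain. It was -0.12 with monocyte and macrophage markers and 0.205 with fibroblast markers. The neutrophil and keratinocyte values share depth. With log2 total reads r was -0.92 for the summed neutrophil markers, 0.81 for suprabasal, 0.82 for basal and 0.84 for S100A12. S100A8 went the same way less closely with neutrophil and suprabasal markers (-0.53 and 0.74), and S100A9 had -0.18 and 0.37. The pattern was not particular to S100A12. S100A10 and S100A4, which occur in many cell types, had -0.91 and -0.76 with the neutrophil markers. They had 0.81 and 0.70 with the suprabasal markers and 0.92 and 0.91 with the basal ones. The correlations are descriptions of these libraries, and the part of cell composition in the S100 levels was not tested.

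**Figure D4:**
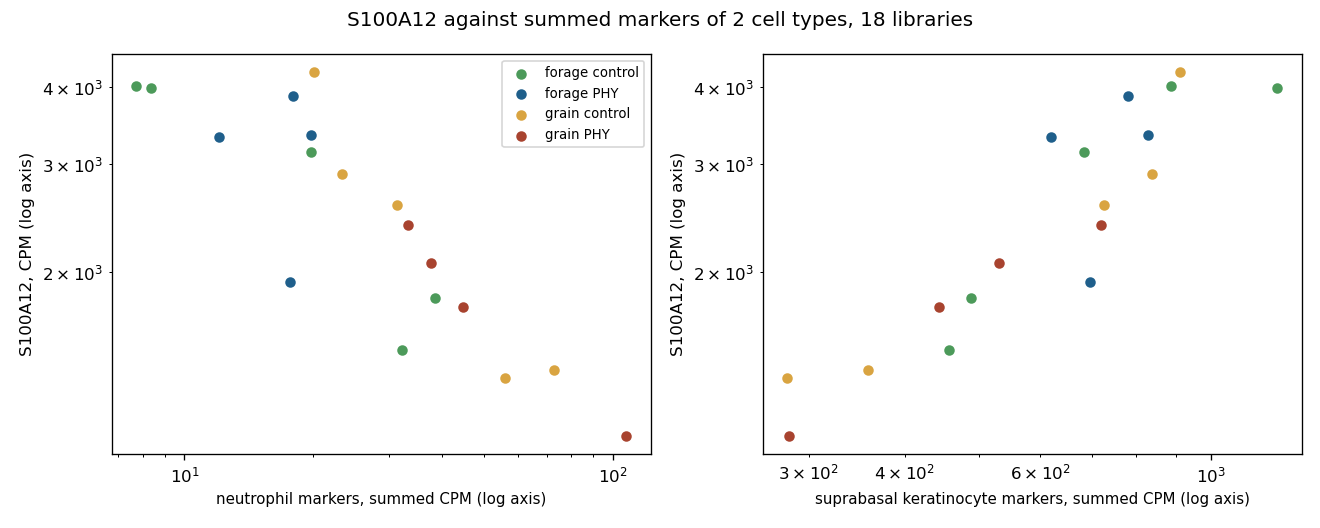
S100A12 in CPM against summed neutrophil markers (left) and summed suprabasal keratinocyte markers (right), in CPM on log axes, 1 point per library and colours by group. S100A12 lies lowest (1080 CPM) in grain_PHY 1, where the neutrophil markers are highest (108 CPM) and the suprabasal ones near their lowest (282.7 CPM).

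Markers of other cell types are given in the same way. Of 11 monocyte and macrophage markers 4 rose and 6 had estimates below 0 (median -0.06). The 4 were TYROBP at 1.24 ± 0.34, MRC1 at 0.72 ± 0.22, MARCO at 2.11 ± 0.69 and CD163 at 0.73 ± 0.28, beside a background of 18.1% called higher. Of 8 basal keratinocyte markers 3 fell (median -0.53), beside 13.8% of all genes and 51.7% of abundant ones: ITGB4 by 0.72 ± 0.21, TP63 by 0.65 ± 0.22 and COL17A1 by 0.58 ± 0.20. None of the 3 was called with total reads as the scale. Of 11 suprabasal markers 5 rose and 4 had estimates below 0 (median 0.89), beside 18.1% of all genes called higher. IVL (involucrin), named after its value was seen, had the lowest estimate, -0.64 ± 0.27 (adjusted p = 0.0654). The risers included KRT1 (1.62 ± 0.53), LORICRIN (1.07 ± 0.36), SBSN (1.28 ± 0.42) and KRTDAP (2.07 ± 0.67). KRTDAP averaged under 1 CPM. Without the 3 libraries with the fewest reads none of these was called, at 0.69, 0.99, 0.67 and 2.07 in the same order. The summed level of all 11 suprabasal markers, risers or not, was not higher on grain (566 ± 241 CPM) than on forage (740 ± 231 CPM). No marker was called among 10 of fibroblasts, 6 of endothelium and 5 of smooth muscle, and 2 of 6 T cell, 1 of 4 B cell and 2 of 5 melanocyte and Langerhans cell markers rose.

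Members ran together to different degrees. Over the 18 libraries the log2 CPM of S100A10 and S100A11 had an r of 0.89. S100A12 had 0.87 with S100A10 and 0.84 with S100A11. S100A2 and S100A4 had 0.83, S100A4 and S100A10 0.815, and S100A2 and S100A10 0.80. Below these came S100A8 and S100A9 at 0.79 and S100A8 and S100A12 at 0.77. The lowest values were those of S100A9, at 0.14 with S100A4 and 0.20 with S100A2. All pairs share library depth, with which S100A9 had an r of 0.18 and S100A4 0.79.

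The genes most like each member in log2 CPM were taken from 9891 tested genes that carried a symbol and averaged 5 CPM or more. S100A12 was most like ACTR2 (r = 0.98), an actin nucleator subunit, PTGES3 (0.97), an HSP90 co-chaperone, and STRAP (0.97). S100A8 was most like ENDOU (0.84), a nuclease of stratified epithelia, PSMA3 (0.83), a proteasome subunit, and PIK3R4 (0.82). S100A9 was most like PI3 (0.82), the protease inhibitor elafin, RAI14 (0.81) and NAE1 (0.80). S100A2 was most like PEBP1 (0.90), RABL2B (0.90) and PPIA (0.89), and S100A14 was most like ABHD2 (0.88), MAN2A1 (0.86) and REEP4 (0.84). For deviations from the group means, r of these pairs ran from 0.78 to 0.98. With log2 total reads, r was 0.84 for S100A12, 0.73 for S100A2, 0.54 for S100A8, 0.39 for S100A14 and 0.18 for S100A9. The part of depth in these likenesses was not tested.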

How the data were processed

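Total RNA of rumen papillae was made into libraries from 10 ng with a stranded total RNA kit, per the labels' protocols. The deposited table holds raw read counts per Ensembl gene, with a name beside each identifier. Per the submitters' processing notes, bcl2fastq 2.20, DESeq2 (version not stated) and the build bosTau9 were used; the aligner and counter, and whether strand was used, are not stated in the sources used here, so overlapping genes may share reads. The deposited normalized values were not used.

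The counts were tested with edgeR 4.0.16 (R 4.3.3): quasi-likelihood F test, robust, TMM, filterByExpr by group, 1 mean per group, all 18 libraries, 6 comparisons, adjusted over 22202 genes. Diet comparisons treat libraries of the same cows as independent. The biological coefficient of variation was 51.4%. Log2 CPM had a prior count of 2; intervals are 95% normal ones. Within groups, libraries correlated at 0.814 to 0.971, and no 2 were identical. Scripts were tested on simulated data.

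The members and gene lists were chosen with earlier results of these data known. All members are named, and of each list up to 4 called genes by smallest p, with TLR4, AGER, CD36, ANXA2, ANXA1, CSF3R and MPO whatever their test; 1 gene the rule names is not reported here. Alternatives were DESeq2 1.42.0 and its size factors, limma 3.58.1 voom with sample weights, no filter and a stricter one (1 CPM in 9 libraries), thinning to the lowest total, an olfactory receptor covariate, only the groups compared and leaving out libraries. Total reads as the scale, also for the overlap of groups, was added after seeing the data.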

Additional observations from a re-analysis of the deposited data

Results flagged for a closer look

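Of 64 sets of 4 or 5 libraries examined for 1 library far from the rest, 4 held one; chance alone gives about 1 in 20. S100A8 in forage_PHY 4 was 107.5 CPM, where the other 3 forage_PHY libraries lay between 209.6 and 217.3 CPM. The log2 ratio of S100A8 over S100A2 was also low there, at -1.65 against -0.96 to -0.88. The log2 ratio of S100A9 over S100A2 was -6.56 in forage_control 2, against -3.67 to -2.99 in the other 4 forage_control libraries. The summed neutrophil markers stood at 107.6 CPM in grain_PHY 1, against 33.3 to 44.7 CPM in the other 3 grain_PHY libraries.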

How the results depend on the processing

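No paired analysis was possible because no label ties a library to a cow. Values are log2 fold changes unless they count members called; the cause of a change was not tested. Grain against forage over both arms gave 2 members called: 1 with DESeq2 size factors and 1 with no filter (S100A11 in both), 4 with voom (S100A10, S100A11, S100A2 and S100A4), and 0 with the stricter filter, thinning, total reads, the olfactory receptor covariate or without the 3 libraries with the fewest reads. Leaving out 1 library gave 0 to 3. In PHY cows the count of 0 became 1 with DESeq2 (S100A7), 1 with only the groups compared (S100A11) and 3 with voom, and 0 to 1 leaving out libraries. In all, 107 of 1328 member values changed sign, 2 of them called in the main test.

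Over both arms S100A8 (-0.04) became 0.033 with size factors, 0.1 with the stricter filter, 0.032 with DESeq2, 0.041 with voom, 0.77 with the covariate, 0.34 with total reads, 0.13 thinned and 0.29 without the 3 libraries. S100A14 (-0.10) became 0.065 with the stricter filter, 0.48 with the covariate, 0.37 with total reads, 0.24 thinned and 0.11 without the 3 libraries. S100A2 became 0.099 with the covariate and 0.12 with total reads. With the covariate S100A12 became 0.34, S100A4 0.078, S100A10 0.17, S100A11 0.058, RPTN -0.0096, TCHHL1 -0.011, ANXA1 0.47, ANXA2 0.29, AGER -0.16, CD36 -0.16 and KRT1 -0.12. ANXA1 also became 0.12 with total reads and 0.030 without the 3 libraries, and AGER became -0.043 without them. The covariate left 0 genes of the whole table called.

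In control cows between diets S100A2 became 0.011 with size factors and with DESeq2, 0.068 with the stricter filter, 0.26 with the covariate, 0.41 with total reads, 0.14 thinned, 0.21 without the 3 libraries and 0.020 with only the groups compared. S100A14 became -0.069 with voom. S100A12 became 0.39 with the covariate, 0.20 with total reads and 0.16 without the 3 libraries. S100A4, S100A10 and S100A11 became 0.055, 0.19 and 0.14 with the covariate, and S100A4 and S100A10 0.044 and 0.036 with total reads. In PHY cows S100A8 became 0.054 with the stricter filter, 0.85 with the covariate, 0.17 with total reads, 0.069 thinned, 0.22 without the 3 libraries and 0.029 with only the groups compared. S100A14 became 0.42, 0.18 and 0.14 with the covariate, total reads and thinning, and S100A12, S100A4 and S100A10 became 0.30, 0.10 and 0.15 with the covariate.

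Between the arms on grain S100A8 became 0.016 with size factors and with DESeq2, 0.030 with the stricter filter, 0.042 with voom, 0.21 with the covariate and 0.020 thinned. There voom also gave 0.12 for S100A2, -0.019 for S100A14 and 0.018 for S100A10, the covariate 0.027 for S100A2, 0.078 for S100A10 and 0.18 for S100A11, and the fit without the 3 libraries -0.16 for S100A14. In the interaction S100A4 became 0.023 with voom and 0.045 with the covariate, S100A8 0.16 with the covariate and S100A9 -0.016 with total reads.

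Leaving out each library in turn, estimates that crossed 0 ran over both arms from -0.20 to 0.12 for S100A8, from -0.18 to 0.0075 for S100A14 and from -0.035 to 0.17 for AGER. In control cows they ran from -0.19 to 0.26 for S100A8, from -0.28 to 0.078 for S100A2 and from -0.10 to 0.32 for S100A14, and in PHY cows from -0.42 to 0.18 for S100A8 and from -0.15 to 1.23 for S100A9. On forage, PHY against control ran from -0.079 to 0.37 for S100A8 and from -0.058 to 0.28 for S100A12. On grain it ran from -0.31 to 0.22 for S100A8, -0.29 to 0.14 for S100A2, -0.11 to 0.24 for S100A14, -0.22 to 0.40 for S100A4, -0.40 to 0.033 for S100A10 and -0.35 to 0.13 for S100A11. The interaction ran from -0.45 to 0.11 for S100A8, from -0.55 to 0.83 for S100A9 and from -0.56 to 0.10 for S100A4. Depth limits S100A7, whose libraries held at most 28 reads.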
